A study of Mus musculus with 5 samples.

Results

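Mt1 and Mt2 encode metallothionein 1 and metallothionein 2, and they are 2 of the 24411 genes of a single-cell table of mouse embryonic blood. They were selected on their UMI levels, since earlier results of these data showed them high in cells rich in Alas2, the gene of the first enzyme of erythroid haem synthesis. The rule that chose them used their level per cell as CPM (the usual counts-per-million scale, here a cell's UMIs of a gene over all its UMIs, a UMI being a tag that marks 1 molecule) in cells with Alas2 of 400 CPM or more against the other cells. That contrast is therefore described below and is not tested.

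All cells came from wild-type C57BL/6 embryos, from blood taken from the heart at embryonic day 9.5 (E9.5, 2 batches) or embryonic day 10 (E10, 3 batches). By the labels they were negative for TER119, CD41, CD43 and CD45, the surface antigens of red cells, platelets and other blood cells, and are called non-haematopoietic. Of 480 wells, 294 cells had at least 1000 genes and 30000 UMIs and were kept. These were 26 and 46 cells of E9.5 replicates 1 and 2, and 87, 72 and 63 cells of E10 replicates 1, 2 and 3. A stage is represented by batches, and nothing in the labels says that the batches came from separate litters, so p-values measure the spread between these batches only.

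Metallothioneins are small cytosolic proteins whose many cysteines bind zinc and copper ions, and also cadmium. They buffer zinc, and their genes are switched on by the zinc-sensing transcription factor MTF1, which binds metal response elements, and by glucocorticoids and oxidative stress. In the embryo they are known from the visceral endoderm of the yolk sac and from the liver.

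Both genes lie on the forward strand of chromosome 8 in the mm10 (GRCm38) build, next to Mt3 and Mt4. In the GENCODE M21 annotation Mt2 spans bases 94172664 to 94173568 and Mt1 spans bases 94179082 to 94180327. The first-numbered transcript of each has 3 exons and a coding sequence of 186 bases, which gives 61 codons before the stop. The coding sequences are shown because they carry what the family is known for. Capitals mark the cysteine codons, TGC and TGT, in the reading frame, and all 20 of them fall at the same positions in both genes.
Mt1 coding sequence: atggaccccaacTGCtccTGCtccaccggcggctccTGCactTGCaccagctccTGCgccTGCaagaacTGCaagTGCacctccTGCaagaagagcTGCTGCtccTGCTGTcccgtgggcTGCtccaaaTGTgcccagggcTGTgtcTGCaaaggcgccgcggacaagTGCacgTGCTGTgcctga
Mt2 coding sequence: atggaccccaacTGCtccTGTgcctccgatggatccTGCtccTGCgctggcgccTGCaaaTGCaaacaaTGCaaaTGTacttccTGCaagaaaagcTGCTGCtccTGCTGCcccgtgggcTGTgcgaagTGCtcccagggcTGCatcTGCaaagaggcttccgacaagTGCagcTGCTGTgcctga
The sequences are identical at 148 of 186 bases, or 79.6%. The longest run that the first-numbered transcripts share is 20 bases, and 17 bases within the last 300, against reads of 150 bases. A read of that length over these transcripts therefore holds bases that differ between them, while shorter usable stretches of a read could still be ambiguous.

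Both genes also share the sequence that MTF1 is known to bind, and since the members moved together the upstream windows are shown. The promoter sequences are those of RefSeq for GRCm38.p6, in which both genes were matched, and cover the 250 bases before the start used there. They lie at chr8:94178839-94179088 for Mt1 and chr8:94172368-94172617 for Mt2, both on the forward strand. Capitals mark the core of the metal response element, searched as TGCACNC and TGCGCNC on both strands.
Mt1 upstream window: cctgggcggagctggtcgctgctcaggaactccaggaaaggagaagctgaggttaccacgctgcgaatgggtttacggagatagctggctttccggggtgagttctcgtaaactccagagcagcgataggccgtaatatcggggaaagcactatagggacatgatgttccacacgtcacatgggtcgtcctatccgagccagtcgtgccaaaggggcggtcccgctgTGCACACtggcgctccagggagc
Mt2 upstream window: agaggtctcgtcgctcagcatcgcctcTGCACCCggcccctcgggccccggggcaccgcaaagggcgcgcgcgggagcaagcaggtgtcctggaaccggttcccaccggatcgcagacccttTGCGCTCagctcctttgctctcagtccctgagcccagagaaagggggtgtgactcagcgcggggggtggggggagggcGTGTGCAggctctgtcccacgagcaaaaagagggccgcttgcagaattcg
The Mt1 window holds 1 core and the Mt2 window 3. Among the 32851 RefSeq promoter windows of the same length, 21.4% hold at least 1 core and 1.26% hold at least 3. Between the RefSeq start and the coding start, a stretch of 222 bases for Mt1 and 230 bases for Mt2, there are 4 further cores in each gene. Other annotated Mt1 transcripts start at bases 94179211 and 94179241, and the 4 further Mt1 cores lie upstream of both starts. The share of all genes with as many cores in this stretch was not counted. A match is a description of the letters and not a binding site.

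In all 5 batches the cells with Alas2 of 400 CPM or more, called Alas2-high here, held Mt1 at about the same level. There were 46 such cells, namely 1 and 10 in E9.5 replicates 1 and 2, and 1, 23 and 11 in E10 replicates 1, 2 and 3. The summed Mt1 level was 10521 and 12312 CPM in E9.5 replicates 1 and 2. In E10 replicates 1, 2 and 3 it was 11089, 11331 and 9744 CPM. The batches thus differed by 1.26-fold at most, with a mean of 10999 CPM ± 955 (SD, n = 5 batches), and 2 of the 5 values rest on 1 cell. The stages overlapped. The 1 Alas2-high cell of E10 replicate 1 also held UMIs of 7 of 8 pluripotent or germ cell markers, summing to 2868 CPM. In the Alas2-high cells of the other batches that sum was 2.51 to 9.47 CPM. Whether that well held more than 1 cell was not tested, and its values below carry the same limit.

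Mt2 in the same cells stood below Mt1 in every batch. Its summed level was 6828 and 9640 CPM in E9.5 replicates 1 and 2. In E10 replicates 1, 2 and 3 it was 6681, 5647 and 4747 CPM. Every E9.5 value lay above every E10 value, with means of 8234 CPM ± 1989 (SD, n = 2) at E9.5 and 5692 CPM ± 968 (SD, n = 3) at E10. The two-sided exact permutation p was 0.1, the smallest that 10 splits of 5 batches allow, so this design cannot reach 0.05. The nearest values of the stages, 6828 and 6681 CPM, each rest on 1 cell, and the E10 cell is the one with pluripotent or germ cell markers. How many of all genes separate the stages in this way was not counted.

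Because a UMI counts molecules whatever their length, Mt1 and Mt2 can be ranked among all genes by UMIs. In the Alas2-high cells Mt1 ranked between 4 and 6 of all genes in each batch, and Mt2 between 7 and 14. The genes above Mt1 were the embryonic globin genes Hbb-y, Hbb-bh1 and Hba-x, the ribosomal RNA gene Rn45s in 4 batches, and Fth1, the heavy chain of the iron store ferritin, in E10 replicate 3. Together the pair made up 1.73% and 2.20% of UMIs at E9.5 and 1.78%, 1.70% and 1.45% at E10, in order of replicate.

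From cell to cell within the Alas2-high class Mt1 varied by less than 3-fold in a batch. In the 10 cells of E9.5 replicate 2 it ranged from 7054 to 17838 CPM with a median of 11704. In the 23 cells of E10 replicate 2 it ranged from 6644 to 15827 CPM with a median of 10615, and in the 11 cells of E10 replicate 3 from 5459 to 14783 CPM with a median of 8875. The highest cell of a batch thus stood 2.38 to 2.71 times above its lowest. Mt2 ranged from 5873 to 12986 CPM, from 2425 to 8708 CPM and from 1634 to 6863 CPM in the same batches. Its spread was 2.21-fold in E9.5 replicate 2 and 4.20-fold in E10 replicate 3.

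The label of the sort and the transcripts of these cells differ. The Alas2-high cells held UMIs of 9 or 10 of the 11 erythroid markers in the table, summing to between 117905 and 198043 CPM, with the adult globin gene Hba-a1 at 0. Itga2b, the gene of CD41, was present in 31 of 46 at 14.3 CPM, against 45 of 248 other cells at 3.79 CPM. Spn, the gene of CD43, went the other way by level, present in 14 of 46 at 1.12 CPM against 34 of 248 at 3.46 CPM. For CD45 no transcript was counted, with Ptprc at 0 UMIs over all kept cells.

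**Figure D1:**
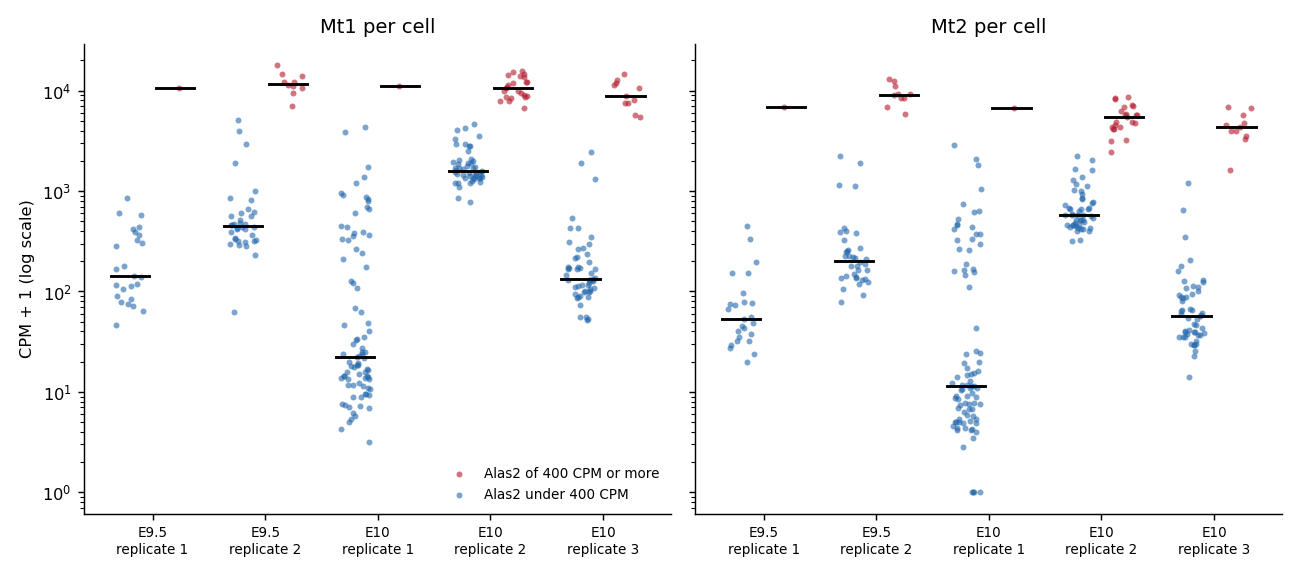
Mt1 (left) and Mt2 (right) per cell on a log axis of CPM with 1 added, by batch, for cells with Alas2 of 400 CPM or more (red) and under it (blue); black bars are medians. The red cells sit at 5459 CPM or more for Mt1, while the blue medians run from 21.4 to 1576 CPM.

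In the 248 other cells the levels were lower, and they differed between batches far more. The Mt1 median was 141 and 447 CPM in E9.5 replicates 1 and 2. In E10 replicates 1, 2 and 3 it was 21.4, 1576 and 131 CPM. The highest batch median was 73.7 times the lowest, against 1.32-fold for the medians of the Alas2-high cells, and batches of 1 stage lay at both ends. The Mt2 medians were 52.1, 202, 10.4, 574 and 56.4 CPM, highest and lowest in the same batches as Mt1.

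Within each batch, no other cell reached the Mt1 level of the lowest Alas2-high cell. The lowest Alas2-high cell stood above the highest other cell by 12.5-fold in E9.5 replicate 1, 1.39-fold in E9.5 replicate 2, 2.54-fold in E10 replicate 1, 1.43-fold in E10 replicate 2 and 2.21-fold in E10 replicate 3. For Mt2 the same gap was 15.2, 2.61, 2.31, 1.08 and 1.35-fold, and across batches 8 other cells exceeded the lowest Alas2-high cell. These gaps come from the contrast that chose the genes. The threshold falls in an empty interval of Alas2, since no kept cell lay between 343 and 616 CPM. The 4 cells just below it held Mt1 at 2063, 2792, 3303 and 2820 CPM and the 4 just above at 8887, 6644, 11289 and 14744 CPM, and all 8 belonged to E10 replicate 2.

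Summed counts give the size of the difference in the 3 batches with at least 5 cells of both classes. The log2 ratio of Mt1 levels, Alas2-high over other, was 3.16 in E9.5 replicate 2, 2.52 in E10 replicate 2 and 4.53 in E10 replicate 3. For Mt2 it was 3.87, 2.81 and 4.79. The Alas2-high levels of Mt1 in these batches were close together, so its ratio was largest where the other cells were lowest. The Mt2 ratio was also largest where the other cells were lowest. Its Alas2-high levels were further apart, at 9640, 5647 and 4747 CPM in the same order. In an edgeR fit with batch as a term and TMM scaling, which sets the typical gene near no change, the log2 fold change was 4.26 (SE 0.38) for Mt1 and 4.70 (SE 0.37) for Mt2. No p is given for either, because this contrast chose them. Scaling mattered for the size: total UMIs alone gave 3.39 and 3.82, and spike-in counts gave 3.90 and 4.34.

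The Mt1 level of the other cells moved across batches with haemoglobin and Alas2 in the same cells. Haemoglobin genes took a median of 0.660% and 1.49% of UMIs in the other cells of E9.5 replicates 1 and 2, and 0.0335%, 5.19% and 0.877% in E10 replicates 1, 2 and 3. Alas2 medians were 11.2, 25.5, 0, 127 and 13.9 CPM in the same order. E10 replicate 2 was highest in all of these and E10 replicate 1 lowest. The 10 erythroid markers with UMIs summed to 6924, 15541, 336, 48704 and 9481 CPM in these cells, and among the 11 in the table Hba-a1 was at 0. Their part in the Mt1 and Mt2 levels was not tested, and transcripts made in a cell and free RNA taken up with it cannot be told apart in these counts.

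As a share of the Alas2-high median of the same batch, Mt1 in the other cells was 1.34%, 3.82%, 0.193%, 14.9% and 1.48%. The share for Mt2 was 0.764%, 2.21%, 0.156%, 10.5% and 1.30%, and for Alas2 0.832%, 1.96%, 0, 13.3% and 1.23%. All 3 were highest in E10 replicate 2 and lowest in E10 replicate 1. By summed UMIs, which the few highest cells weigh on, the shares were further apart: in E10 replicate 1 they were 3.42% for Mt1, 3.54% for Mt2 and 0.178% for Alas2, and in E9.5 replicate 2 they were 11.2%, 6.84% and 1.90%. Haemoglobin genes stood higher in all batches but E10 replicate 1, at 5.72%, 11.4%, 0.171%, 27.9% and 4.00%.

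The ratio of Mt1 to haemoglobin was not the same in the classes. Per 100 haemoglobin UMIs the median Alas2-high cell held 9.12 and 8.92 Mt1 UMIs at E9.5, and 5.64, 6.07 and 4.05 at E10. The median other cell held 2.05 and 2.71 at E9.5, and 5.43, 2.96 and 1.44 at E10. The ratio was lower in the other cells of every batch, by the least in E10 replicate 1, where 40 of 86 other cells exceeded the single Alas2-high cell. Among Alas2-high cells the E9.5 mean was 9.02 ± 0.139 (SD, n = 2) and the E10 mean 5.25 ± 1.06 (SD, n = 3), without overlap (two-sided exact permutation p = 0.1, the smallest possible). The haemoglobin share itself was 12.3% at E9.5 and 20.1% at E10, also without overlap, and its part in the lower ratio was not tested.

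**Figure D2:**
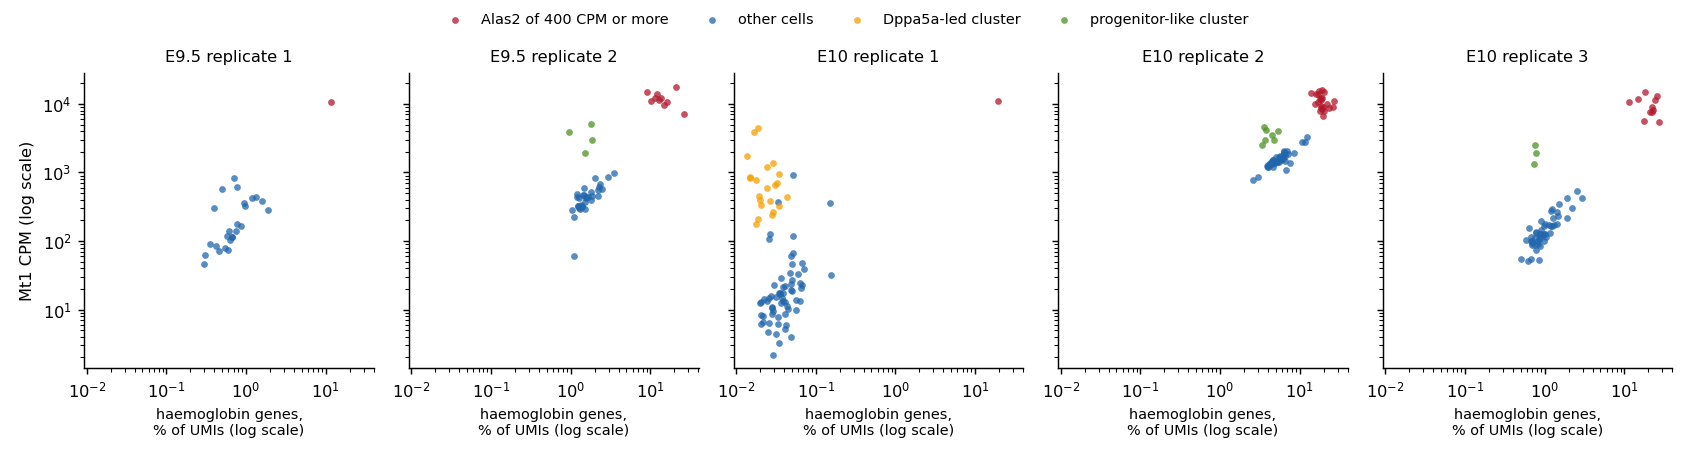
Mt1 CPM against the percent of UMIs from haemoglobin genes, both on log axes, 1 point per kept cell and 1 panel per batch. Most other cells (blue) follow haemoglobin within a batch, while the progenitor-like cells (green) and the Dppa5a-led cells (orange) stand above cells of like haemoglobin.

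At the depth of the files a molecule of Mt1 was found in all 294 kept cells and one of Mt2 in 290. The 4 cells without Mt2 all belonged to E10 replicate 1. At 1 depth of 30000 UMIs per cell, Mt1 was found in 46 of 46 Alas2-high cells and in 217 of 248 other cells, or 87.5% (95% exact binomial interval 82.7% to 91.3%). Mt2 was found in 46 of 46 and in 187 of 248, or 75.4% (69.6% to 80.6%). In E10 replicate 1, 56 of 86 other cells kept an Mt1 molecule and 39 kept an Mt2 molecule. Outside that batch all other cells kept Mt1 but 1, which was in E10 replicate 3, where 41 of 52 kept Mt2. The intervals cover counting error only. Median depth was 371308 UMIs in the Alas2-high and 293342 in the other cells.

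Among clusters of cells built without the metallothionein, globin and listed metal genes, 2 other groups held more Mt1 and Mt2 than the rest of their batch. Clusters were named by markers, and the values are descriptions. All Alas2-high cells fell in clusters 5 and 6, both erythroid-like. Cluster 11 was named haematopoietic progenitor-like, with the stem cell factor receptor gene Kit and the transcription factor genes Myb, Gfi1b and Runx1 among its markers, and held 14 cells from 3 batches. It also held UMIs of erythroid markers, and its median depth was 524864 UMIs a cell.

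In E9.5 replicate 2 the 4 progenitor-like cells had a median Mt1 of 3441 CPM against 432 CPM in the 32 remaining other cells. In E10 replicate 2 the 7 such cells had 3498 against 1514 CPM, and in E10 replicate 3 the 3 such cells had 1905 against 128 CPM. The order was the same in all 3 batches, and the groups overlapped only in E10 replicate 2, where 3 of the 42 remaining cells exceeded the lowest progenitor-like cell. Mt2 medians were 1521 against 184, 1600 against 550 and 646 against 53.0 CPM. Haemoglobin did not differ in the same way: its median share was 1.66% against 1.49%, 3.75% against 5.54% and 0.745% against 0.908%. Alas2 stood at 28.1 against 25.5, 116 against 130 and 9.39 against 14.7 CPM.

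The second group was cluster 7, 22 cells that all came from E10 replicate 1. Its leading genes included Dppa5a, Zfp42, Tdgf1 and Nanog, genes of pluripotent cells, and the heat shock gene Hspb1, but Pou5f1 was at a median of 12.7 CPM and Dppa3, known from germ cells, had a median of 0, so it is called Dppa5a-led here. Its markers also included the mesenchymal genes Prrx1, Prrx2, Twist1, Pdgfra, Pdgfrb, Col1a1, Col1a2 and Col3a1. The neural genes Tubb3, Stmn2 and Sox2 and the epithelial gene Cdh1 were among them too. Mt1 in these cells ranged from 175 to 4372 CPM with a median of 632, against a median of 14.8 CPM in the other 64 cells under the Alas2 threshold. Mt2 had a median of 426 against 7.13 CPM. Only 3 of the 64 cells exceeded the lowest Dppa5a-led cell in Mt1. The median depth was 571138 against 457838 UMIs. Haemoglobin took 0.0223% of UMIs in the cluster against 0.0379% in the rest, and Alas2 had a median of 0 in both. The cluster is 1 library, so batch and cell group cannot be told apart beyond that library.

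Among the other clusters the level followed the batch more than the cluster. In E10 replicate 2 the medians of clusters 0, 4 and 10 were 1509, 1643 and 1630 CPM for Mt1, while in E10 replicate 3 clusters 4 and 10 stood at 125 and 135 CPM. In E10 replicate 1 the 3 mesenchymal-like clusters had medians of 11, 13.4 and 17.4 CPM. Neural crest-like cells of cluster 10 stood higher there, with 5 cells between 20.5 and 907 CPM. The 3 cells of that cluster in E9.5 replicate 1 ranged from 388 to 609 CPM, against a median of 128 CPM in the 16 cells of cluster 3 of that batch.

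**Figure D3:**
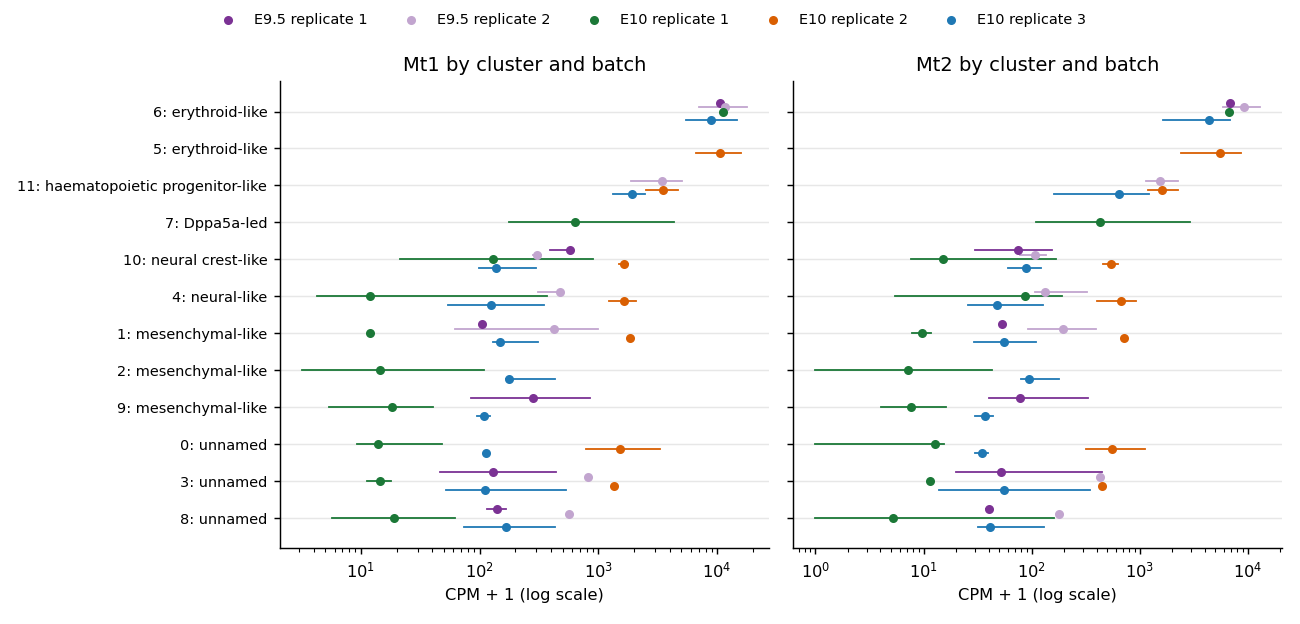
Mt1 (left) and Mt2 (right) by cluster, on a log axis of CPM with 1 added; points are medians over the cells of a cluster in 1 batch, lines run from the lowest to the highest cell, and colours are batches. The erythroid-like clusters 5 and 6 are highest, followed by cluster 11 in each batch that holds it.

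The brain and skin members of the family were near absent. Mt3, known from neurons, had 7 UMIs in Alas2-high cells and 204 in other cells, of which 73 were in a single cell of cluster 0. Mt4, known from stratified epithelium, had 28 UMIs, all in 5 cells of the Dppa5a-led cluster. In the 46 Alas2-high cells Mt4 had 0 UMIs.

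Mt1 and Mt2 rose and fell together from cell to cell, though not in every group of cells. Spearman's correlation of their log2(CPM + 10) was 0.96 over the 294 kept cells, which share batch, depth and class differences. Within the Alas2-high cells it was 0.75 in E9.5 replicate 2 (n = 10), 0.72 in E10 replicate 2 (n = 23) and 0.85 in E10 replicate 3 (n = 11). Within the other cells it was 0.63 and 0.73 in the E9.5 batches (n = 25 and 36) and 0.65, 0.96 and 0.65 in the E10 batches (n = 86, 49 and 52). Without the progenitor-like and Dppa5a-led clusters it was 0.17 in E10 replicate 1 (n = 64), where most cells hold few molecules of either gene. Some cells of that batch held more Mt2 than Mt1. Its 4 neural-like cells had medians of 85.8 CPM for Mt2 and 10.8 CPM for Mt1. The highest Mt2 share of a single other cell there was 96.8%. The cause of the low correlation was not tested. Correlations over cells are descriptions, since cells of a batch share a library.

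Inside the Alas2-high class Mt1 had negative correlations with haemoglobin and mixed ones with Alas2. Its correlation with haemoglobin was -0.37, -0.37 and -0.19 in the 3 batches, and with Alas2 0.14, 0.20 and -0.53. For Mt2 the values were -0.41, -0.33 and -0.25 with haemoglobin and 0.09, 0.18 and -0.30 with Alas2. Over all other cells the correlation of Mt1 with haemoglobin was 0.67 and 0.61 at E9.5 and -0.14, 0.33 and 0.64 at E10. Without the progenitor-like and Dppa5a-led clusters, left out after their values were seen, it was 0.67 and 0.76 at E9.5 and 0.49, 0.76 and 0.82 at E10.

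Genes were ranked by the mean over batches of their within-batch Spearman correlation with the mean log2 level of the pair. Over the 248 other cells and 6951 genes the highest was Car2 at 0.63, from 0.52 to 0.75 across the 5 batches. Car2 encodes carbonic anhydrase 2, a zinc enzyme of red cells. Next came Blvrb, a biliverdin and flavin reductase of red cells, at 0.54, Hbb-bh1 at 0.46 and Klf1, an erythroid transcription factor, at 0.45. Smim1, Hba-x, Sod2, Hbb-y and Cpox followed between 0.43 and 0.40, and the median over all genes was -0.0041. The 3 globin genes had negative values in at least 1 batch. Sod2, mitochondrial superoxide dismutase, is the one of these that is not an erythroid or haem gene by its known role. The lowest were Gm1673, Dusp9, Tpm4, Tubb5 and Ank3, from -0.39 to -0.35.

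Over the 44 Alas2-high cells of 3 batches and 4603 genes the values were spread more widely. The highest were Cenpt at 0.64, a centromere protein gene, Psmc5 at 0.57, Scp2 at 0.55, Polr2a at 0.55 and Spc25 at 0.54. Cox6a1, Rpl19, Wars, Zw10 and Cep295 followed at 0.53 to 0.52. Among the lowest were Fbl, Ranbp2, Hnrnpm and Tial1, from -0.50 to -0.47. With 10 to 23 cells a batch, values of this size have wide error, and 5% of the genes lay above 0.32.

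The balance of the pair also differed between batches. Of the summed Mt1 and Mt2 UMIs in Alas2-high cells, Mt2 made up 39.4% (95% exact binomial interval 38.2% to 40.5%) and 43.9% (43.5% to 44.3%) in E9.5 replicates 1 and 2. In E10 replicates 1, 2 and 3 it made up 37.6% (36.7% to 38.5%), 33.3% (33.0% to 33.5%) and 32.8% (32.4% to 33.1%). Both E9.5 values lay above all E10 values, with means of 41.6% ± 3.22 (SD, n = 2) and 34.5% ± 2.66 (SD, n = 3). The nearest values of the stages, 39.4% and 37.6%, each rest on 1 cell. The two-sided exact permutation p was 0.2, and the smallest possible is 0.1. The binomial intervals cover counting error only and not the spread between cells. Over single Alas2-high cells the share ran from 38.0% to 49.6% in E9.5 replicate 2. It ran from 26.0% to 42.2% in E10 replicate 2 and from 23.0% to 39.3% in E10 replicate 3.

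In the other cells the share was 25.3% and 32.3% at E9.5 and 38.4%, 28.9% and 28.9% at E10, and the stages overlapped. Over all kept cells it was 36.3% and 41.9% at E9.5 and 38.2%, 32.2% and 32.4% at E10, a difference of -4.84 percentage points, E10 minus E9.5 (exact permutation p = 0.3). Within 4 of the 5 batches the Alas2-high cells had the higher Mt2 share, and E10 replicate 1 was the exception.

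**Figure D4:**
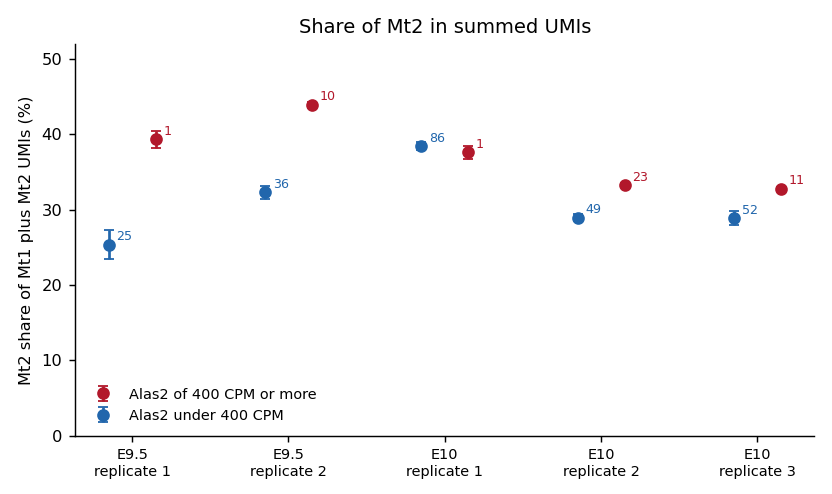
Mt2 as a percent of summed Mt1 and Mt2 UMIs per batch, for cells with Alas2 of 400 CPM or more (red) and under it (blue). Bars are 95% exact binomial intervals, which cover counting error only, and small numbers count cells. The red points lie at 39.4% and 43.9% at E9.5 and between 32.8% and 37.6% at E10.

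Stage was the one condition of the design, and summed over all kept cells the stages overlapped for both genes. Over all kept cells the summed Mt1 level was 791 and 4767 CPM at E9.5 and 547, 5198 and 3058 CPM at E10. Mt2 stood at 451 and 3441 CPM at E9.5 and 338, 2473 and 1465 CPM at E10. Batches of both stages were high and low. For Mt1 the order was that of the Alas2-high cells per kept cell and of the haemoglobin of the other cells, while Mt2 was highest in E9.5 replicate 2, which came after E10 replicate 2 in both. In edgeR's quasi-likelihood test on batch sums the log2 fold change, E10 over E9.5, was -0.00019 (SE 1.04, adjusted p = 1.00) for Mt1 and -0.54 (SE 1.02, adjusted p = 0.908) for Mt2. Both differences were smaller than their SE.

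The same comparison without the Alas2-high cells gave 0.15 (SE 0.97, adjusted p = 0.975) for Mt1 and 0.06 (SE 0.98, adjusted p = 0.989) for Mt2. The summed Mt1 levels were 214 and 1382 CPM at E9.5 and 379, 1970 and 423 CPM at E10, so the stages overlapped. Leaving out 1 batch turned the direction: Mt1 ranged from -1.22 without E10 replicate 2 to 2.11 without E9.5 replicate 2. No gene of 14103 passed the test over all kept cells and none of 13904 in the other cells, 0.0% in both. At an unadjusted p under 0.05 there were 1119 and 1365 genes, and DESeq2 called 86 and 233. With 0.0% called, no member of any of the metal and stress lists described next passed in either stage comparison.

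Within the Alas2-high cells alone, a comparison added after the data were seen, the log2 fold change was 0.05 (SE 0.32, adjusted p = 1.00) for Mt1 and -0.39 (SE 0.34, adjusted p = 1.00) for Mt2 in edgeR. It called 1 gene of 8764 (0.0114%), the immediate early gene Fos, which was lower at E10 and is named after its values were seen. The difference of the class contrast between stages was -0.15 (SE 0.40) for Mt1 and -0.81 (SE 0.42) for Mt2, both with an adjusted p of 1.00. Both fits took all 5 batches, including the 1 Alas2-high cell each of E9.5 replicate 1 and E10 replicate 1.

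Genes that handle metals were set beside the pair in the same contrast. Over all genes 23.5% of 12238 were called in that contrast, 12% higher and 11.5% lower, so a list's count is given for description and nothing is read from it. The split depends on the scaling: 51.0% of called genes were higher with TMM, 9.14% with total UMIs and 23.7% with spike-in counts. With total UMIs 30.2% of genes were called, 2.76% higher and 27.5% lower, and with spike-in counts 23.0%, 5.45% higher and 17.6% lower. The median over all genes moved from -0.23 with TMM to -1.10 with total UMIs and -0.56 with spike-in counts, on the log2 scale. Levels below are CPM of sums as mean ± SD over 3 batches, and log2 fold changes are from the TMM fit.

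Of MTF1 and its known targets 5 of 6 symbols were measured, with 3 called higher and 1 lower. Mtf1 itself stood at 28.7 CPM ± 16.1 in the Alas2-high and 20.6 ± 4.97 in the other cells, and was higher by CPM in 1 of 3 batches. Its log2 fold change of 1.22 (SE 0.48) was 0.35 with total UMIs, which did not call it. The zinc exporter gene Slc30a1 was at 20.4 ± 12 against 13.5 ± 3.61 CPM and was not called. Sepw1, of selenoprotein W, was at 1167 ± 258 against 638 ± 120 CPM.

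Zinc transporters were called in both directions. The importer Slc39a8 stood at 381 CPM ± 25.0 in Alas2-high cells against 48.2 ± 15 (log2 fold change 3.90, SE 0.31). The importers Slc39a10, at 4.78 ± 5.09 against 64.9 ± 19.3 CPM, and Slc39a6, at 7.77 ± 5.09 against 68.2 ± 30 CPM, were lower. Of 11 importers tested 1 was called higher and 2 lower, with a median log2 fold change of -0.18; Slc39a14 stood at -2.51 and was not called. Of 7 exporters tested 1 was called, Slc30a10, a transporter of manganese and zinc, at 70.0 CPM ± 10.9 against 11.7 ± 13.4 (log2 fold change 4.07). The exporters Slc30a4 and Slc30a5 stood at -0.81 and 0.39 and were not called. The direction of these 4 transporter genes was the same under all 3 scalings.

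With TMM the called iron and haem genes were all higher. Of 16 iron genes 10 were called higher and 0 lower, with a median log2 fold change of 1.76. Slc25a37, which carries iron into mitochondria, was at 1203 CPM ± 63.5 against 99.4 ± 90.1, and Fth1 at 9182 ± 1384 against 1715 ± 483. Tfr2, of transferrin receptor 2, and Ncoa4, which delivers ferritin for breakdown, were also higher, by 2.72 and 2.92. Of 8 haem synthesis genes other than Alas2, 7 were called higher and 0 lower, with Uros, Urod and Fech at log2 fold changes of 3.13 to 3.76. With total UMIs the counts were 7 higher and 1 lower for both lists.

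Of 9 copper genes 4 were called higher and 0 lower. Cox17, a copper chaperone of the respiratory chain, was at 920 CPM ± 300.4 against 452 ± 142. Sod1, the copper and zinc superoxide dismutase gene, was higher by 1.18 on the log2 scale, while the copper transporter genes Slc31a2 and Atp7a stood at -1.48 and -1.39 and were not called. With total UMIs the median of the copper list turned from 0.80 to -0.08. Of 24 genes of glutathione and oxidative defence 15 were called higher and 1 lower, with Gpx1, glutathione peroxidase 1, at 4747 CPM ± 422 against 1099 ± 211. With total UMIs 6 were higher and 3 lower. Gclm and Prdx3 were higher by 2.56 and 2.59, and Gsta4 was lower by a log2 fold change of -2.54.

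In the lists of other known inducers of metallothioneins and of cell stress, 2 genes were called higher. None of 8 glucocorticoid response genes was called, with negative log2 fold changes in all 8 and Nr3c1, the glucocorticoid receptor gene, at 5.17 CPM ± 4.15 against 17.4 ± 7.35. Zbtb16, Klf9 and Sgk1 stood at -3.37, -2.13 and -1.14. Of 14 hypoxia genes 1 was called, Slc2a1, the glucose transporter gene, higher by 1.62, while Ndrg1, Pfkfb3 and Adm stood at 1.39, -1.71 and -3.10. Of 12 heat shock genes 1 was called, Hsp90aa1, higher by 0.73. The heat shock factor gene Hsf1 stood at 0.84 and was not called, and Hspa1a, Hspa1b and Hspb1 were at -2.26, -2.42 and -2.42 and were not called either. Of 12 immediate early genes 8 were called lower and 0 higher, among them Fos, Egr1, Klf4 and Nr4a1. With total UMIs no member of these 4 lists was called higher, and 2, 5, 3 and 10 were called lower.

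**Figure D5:**
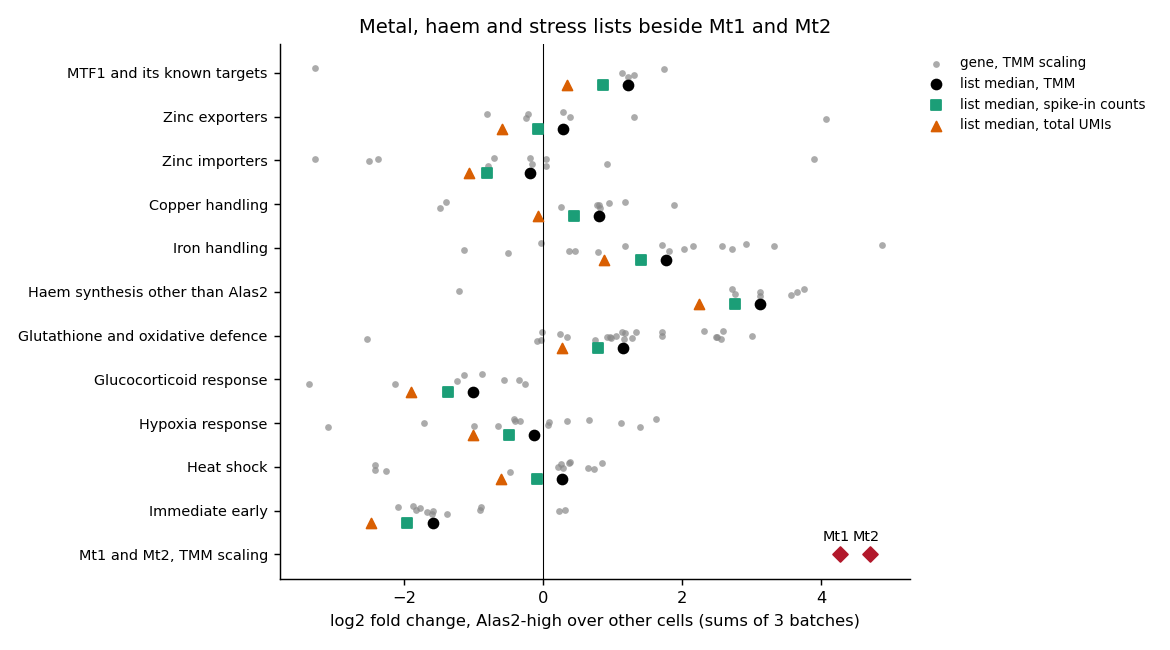
Log2 fold change, Alas2-high over other cells, for the genes of 11 lists (grey, TMM scaling) with the list medians under 3 scalings, and for Mt1 and Mt2 (red diamonds, TMM scaling). Mt1 at 4.26 and Mt2 at 4.70 lie to the right of every list median, and only Slc25a37 of the list genes lies beyond both.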

How the data were processed

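Single cells of embryonic blood were profiled by a modified STRT-seq method, per the labels' protocols, while the series' design text names Smart-Seq; the values are read as molecules because the deposited table is named as UMI counts. It is 1 table of raw UMI counts per gene and cell, with 96 wells per batch. Its columns were assigned to batches, and so to stages, only by the batch number that the column names and the sample titles share. The submitters' processing notes name CASAVA 1.8, TopHat2 2.0.12, HTSeq (version not given in the sources used here) and the mm10 build. Counting settings for reads that match several genes or either strand are not given in the sources used here.

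The 95 spike-in rows were left out of CPM and library sizes. Cells with at least 1000 genes and 30000 UMIs were kept, with 7545865 to 44415774 UMIs per batch in kept cells and a median of 308924 per cell (31294 to 1407021). All 96 well numbers occur in every batch, no kept cell was a likely copy of another well (under 10% of the UMIs of the same-numbered well of another batch and best correlated with it; 23 wells below the limits were), no doublet caller was run, and no columns were identical. Cells were clustered with scanpy 1.11.5 and leidenalg 0.10.2 (2000 variable genes, 20 components, resolution 1).

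Cells of a batch were summed, in the class contrast separately for each class of at least 5 cells, and fitted with edgeR 4.0.16 in R 4.3.3 (quasi-likelihood, filterByExpr, TMM, Benjamini-Hochberg threshold 0.05). The stage fit within Alas2-high cells and the difference of the class contrast between stages took classes of 1 cell or more. DESeq2 1.42.0, limma 3.58.1, other scalings, filters and thresholds, and leaving out each batch were alternatives. The fits were tested on simulated counts with 100 genes changed at each size. At a log2 fold change of 2, either way, each of the 2 main stage fits called 36 of 100 and the class fit 74. At 4 the stage fits called 77 over all kept cells and 83 over the other cells, and the class fit 96. The stage fits thus miss many changes of this size. For single values the 5 batches were permuted exactly, two-sided (scipy 1.17.1).

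The members, lists and tests were chosen with earlier results of these data known. From each list the 4 members with the largest log2 fold change, of at least 10 counts per sum, were named, and others are named as examples. Some genes that these rules name are not reported here. Likeness used genes with a UMI in at least 25% of the cells and a mean of at least 20 CPM, in batches with at least 20 such cells (10 for the Alas2-high class).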

Additional observations from a re-analysis of the deposited data

Results flagged for a closer look

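The 75 wells with UMIs that fell below the limits on genes or UMIs enter no comparison, and they held Mt1 and Mt2 above the 3 counts that set the lower limit of detection. Summed over the wells of a batch, Mt1 stood at 2678 CPM in 5 wells of E9.5 replicate 1 and at 1494 CPM in 4 wells of E9.5 replicate 2. In E10 replicates 1, 2 and 3 it stood at 334, 3150 and 3694 CPM in 9, 24 and 33 wells. Mt2 stood at 2329 CPM in E9.5 replicate 1 and at 214, 1359 and 1977 CPM in the E10 batches, while E9.5 replicate 2 held only 3 UMIs of it.

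Many of these wells look like faint copies of another batch, so the sums are not those batches' own levels. Among wells with at least 5000 UMIs, 20 of E10 replicate 2 held under 10% of the UMIs of the same-numbered well of E10 replicate 3 and correlated best with it. The same held for 2 wells of E9.5 replicate 1 and 1 well of E9.5 replicate 2, each with the other E9.5 batch. These wells carried 94.3%, 71.7% and 85.8% of the UMIs of their batch's wells below the limits. Without them, a choice made after the data were seen, Mt1 was at 1126 CPM in 4 wells of E10 replicate 2 (15 UMIs) and at 823 CPM in 3 wells of E9.5 replicate 1 (6 UMIs). In 3 wells of E9.5 replicate 2 it was at 4662 CPM, from 4 UMIs. Mt2 was then at 450 CPM (6 UMIs) in E10 replicate 2, with 1 and 2 UMIs in the E9.5 batches. No such well was found in E10 replicates 1 and 3, and wells under 5000 UMIs were not examined for copies. Whether the remaining wells held a cell was not tested.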

How the results depend on the processing

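The stage comparisons changed direction with single batches, and no call for Mt1 or Mt2 was made under any setting run. Over all kept cells the Mt1 log2 fold change turned to 0.0063 without a filter on low counts and to 0.079 with total UMIs, and ranged from -0.85 to 2.0 when 1 batch was left out. Mt2 ranged from -1.41 to 1.77. In the cells with Alas2 under 400 CPM, limma with equal weight per cell gave -0.21 for Mt1 and -0.036 for Mt2, and leaving out 1 batch gave -1.22 to 2.11 and -1.07 to 2.47. The lowest value of both genes in these cells came without E10 replicate 2 and the highest without E9.5 replicate 2. DESeq2 called 86 and 233 genes where edgeR called 0. In the Alas2-high cells the stage fold change turned to -0.24 for Mt1 without E9.5 replicate 1 and -0.17 without E10 replicate 1, and to 0.14 for Mt2 without E9.5 replicate 2. Leaving out 1 batch gave -0.24 to 0.42 for Mt1 and -0.79 to 0.14 for Mt2 there. The number of genes called there ranged from 1 to 7. The cause was not tested.

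The class contrast chose the genes, so its direction was set beforehand and its constancy is no support. It kept that direction under all 18 alternatives, from 3.39 to 5.04 for Mt1 and from 3.82 to 5.45 for Mt2. Its number of called genes ranged from 1063 without E9.5 replicate 2 and 1688 without E10 replicate 3 to 4450 with limma, and was 1743 with no batch term. The difference in Mt2 share ranged from -7.65 to -2.03 percentage points when 1 batch was left out, and was -1.04 as a median over cells. At 30000 UMIs per cell 87.5% of other cells held Mt1 and 75.4% held Mt2, against 100% and 98.4% at the depth of the files. In E10 replicate 1, the batch with the lowest levels, Mt2 was found in 82 of 86 other cells at the depth of the files. At 30000 UMIs it was found in 39 of 86. As Pearson's correlation the pair stood at 0.96 over all kept cells.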
